A study of Mus musculus with 18 samples.

Results

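Slc2a2, G6pc2, Pcx, Gpd2, Mdh1 and Glud1 carry glucose into the beta cell and connect its breakdown to mitochondria, and they were chosen by gene symbol, as 6 of the 53801 mouse genes listed. All 6 passed the filter on low counts that left 18364 genes for testing. They were followed in RNA-seq libraries of whole pancreatic islets, the small organs that hold the beta cells and other endocrine cells, of mice aged 5 weeks on normal chow. There were 4 libraries of males heterozygous for S64F in the beta-cell transcription factor MafA (male S64F/+), 4 of wild-type males (male WT), 5 of heterozygous females (female S64F/+) and 5 of wild-type females (female WT). The series' title ties the variant to MODY, an inherited form of diabetes, and to a dysfunction biased towards males. The labels give neither strain nor how the allele was made or whether replicates were separate animals. Every p-value below therefore sets a difference against the scatter of these libraries, which may be technical.

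In a beta cell, glucose enters through a transporter and is then phosphorylated, and the rate of this step sets how much insulin is released. Pyruvate, the end product of glycolysis, enters the mitochondrion and feeds both the citric acid cycle and cycles that return carbon to the cytosol. The glycerol phosphate and malate-aspartate shuttles carry the electrons of cytosolic NADH into the mitochondrion, because NADH itself cannot cross the inner membrane.

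The libraries held 19.3 to 108.7 M counts, with a median of 42.4 M. Mafa transcript, counted over both alleles and therefore no check of the genotype labels, was at 147 to 267 CPM in male S64F/+ against 812 to 1008 CPM in male WT islets, and at 104 to 239 CPM in female S64F/+ against 492 to 803 CPM in female WT islets. CPM is the count of a gene in 1 M counts of its library, after scaling by the trimmed mean of M values (TMM). The islet identity of the samples was checked on marker lists, in none of which was a marker at 0 in all libraries. The summed CPM of 9 beta-cell markers (Mafa among them) was 125868 to 140234 in male S64F/+ and 211799 to 290124 in male WT libraries, without overlap, and 131675 to 244097 in female S64F/+ and 167130 to 307175 in female WT libraries. The sum of 7 alpha-cell markers was 36020 to 60206 in male S64F/+ and 34471 to 43487 in male WT libraries, and 59833 to 82963 in female S64F/+ and 34132 to 42415 in female WT libraries, the female ranges being apart. In whole islets, fewer cells of a type and less RNA per cell cannot be told apart.

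MafA belongs to the large MAF factors, which bind elements built on the letters TGCTGAC. These letters were searched on both strands of the RefSeq promoter windows (GRCm38.p6) of the 6 genes, which reach from 250 bases before to 50 bases after a start and number 9 because Gpd2, G6pc2 and Pcx have several starts. TGCTGAC was found in the second window of G6pc2 and in no other of the 9. The 6-letter core TGCTGA, which TGCTGAC contains, was found there and in the window of Mdh1. Of all 32851 windows of this length, 4.67% held TGCTGAC and 19.5% held TGCTGA. A match is a string of letters and not a measured binding site. The 250 bases before the start are shown for Slc2a2 and Pcx, the members that were lower in S64F/+ islets of both sexes, and for the windows with a match, in which capitals mark the match (read on the opposite strand in G6pc2).
Slc2a2, chr3:28697653-28697902, plus strand: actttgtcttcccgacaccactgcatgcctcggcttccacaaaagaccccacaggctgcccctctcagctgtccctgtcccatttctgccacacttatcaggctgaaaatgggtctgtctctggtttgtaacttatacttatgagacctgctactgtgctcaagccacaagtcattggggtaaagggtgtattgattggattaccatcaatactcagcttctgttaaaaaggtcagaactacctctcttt
Pcx, first start, chr19:4510222-4510471, plus strand: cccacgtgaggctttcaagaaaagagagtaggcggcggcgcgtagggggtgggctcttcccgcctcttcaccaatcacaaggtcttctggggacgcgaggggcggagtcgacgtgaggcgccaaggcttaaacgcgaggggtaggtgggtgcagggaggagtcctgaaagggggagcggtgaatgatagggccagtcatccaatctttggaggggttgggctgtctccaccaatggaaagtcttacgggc
G6pc2, second start, chr2:69219699-69219948, plus strand: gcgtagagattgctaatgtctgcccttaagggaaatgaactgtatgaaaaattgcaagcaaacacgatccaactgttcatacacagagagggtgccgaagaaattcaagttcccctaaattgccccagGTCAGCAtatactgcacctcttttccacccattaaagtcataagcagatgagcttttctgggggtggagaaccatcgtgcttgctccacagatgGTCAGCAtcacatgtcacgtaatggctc
Mdh1, chr11:21571935-21572184, minus strand: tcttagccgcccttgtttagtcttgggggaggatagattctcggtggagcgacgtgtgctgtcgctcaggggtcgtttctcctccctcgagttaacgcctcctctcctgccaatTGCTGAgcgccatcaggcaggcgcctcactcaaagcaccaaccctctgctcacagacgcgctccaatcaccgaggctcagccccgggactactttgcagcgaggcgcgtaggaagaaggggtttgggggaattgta
Counted from the start site, the matches in G6pc2 have their first base at positions -122 and -28, and the match in Mdh1 at position -136. No match in a window says only that these letters are not in those bases.

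Per length, G6pc2 was the most abundant of the 6 transcripts in each group. Its deposited FPKM (fragments per kilobase of transcript and per M fragments) averaged 481 ± 41 in male S64F/+ and 421 ± 62.9 in male WT islets, and 285 ± 34.2 in female S64F/+ and 410.3 ± 74.7 in female WT islets (SD, n = 4 per male and n = 5 per female group). Slc2a2 came second, at 74.1 ± 10.1 FPKM in male S64F/+ and 107 ± 15.8 FPKM in male WT islets, and at 70.8 ± 15.9 FPKM in female S64F/+ and 112 ± 9.66 FPKM in female WT islets. Mdh1, Glud1, Pcx and Gpd2 followed in that order in all 4 groups. Most neighbours in this order had separate ranges, but Slc2a2 and Mdh1 overlapped in male S64F/+ and in female S64F/+ islets, and Pcx and Gpd2 overlapped in female S64F/+ islets. Glud1 stood only just above Pcx in female WT islets, with a lowest FPKM of 19.7 for Glud1 and a highest of 19.6 for Pcx. The lengths behind the deposited FPKM were longer than the merged exons of the GENCODE annotation, for example 13098 against 4753 bases for Pcx. Per merged exon length Pcx stood above Glud1 in the 2 WT groups, at 39.1 against 32.3 counts per kilobase and M counts in male WT and 46.9 against 30.7 in female WT islets, while the rest of the order was as with the deposited FPKM.

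**Figure D1:**
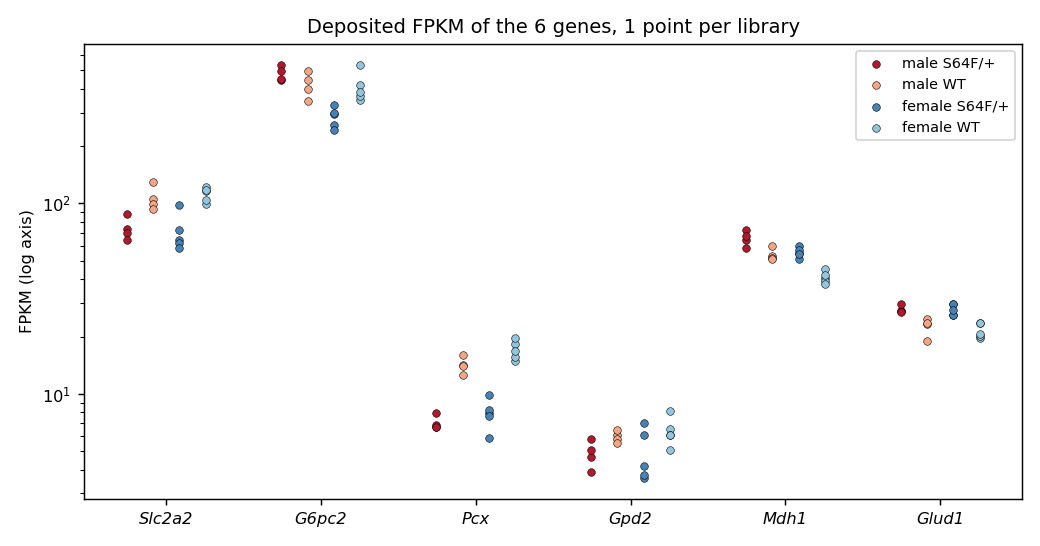
Deposited FPKM of each gene on a logarithmic axis, with 1 point per library and the 4 groups side by side within a gene. G6pc2 lies highest and Gpd2 lowest by group mean, and the points of Slc2a2 come down to those of Mdh1 in both S64F/+ groups.

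The comparison of S64F/+ with WT islets of each sex asked which steps of glucose sensing move with the variant. In males 3 of the 6 genes were lower in S64F/+ islets by edgeR's quasi-likelihood test (Slc2a2, Pcx and Gpd2) and none was higher, with 12.3% of all tested genes lower and 15.4% higher. In females 3 were lower (Slc2a2, G6pc2 and Pcx) and 2 higher (Mdh1 and Glud1), with 11% of all tested genes lower and 10.2% higher. The male split moved with the scaling of the libraries. With library-size scaling 2 of the 6 were lower and 2 higher in male S64F/+ islets, beside 666 lower and 4248 higher among all genes, and with pan-endocrine scaling 2 were lower and 1 higher, beside 915 lower and 3991 higher. The TMM scaling used throughout gave 2252 lower and 2819 higher. In females all genes split into 2015 lower and 1869 higher, or 1475 lower and 2208 higher with pan-endocrine scaling. For none of the 6 did the genotype effect itself pass the test of a difference between the sexes, which 4.47% of all tested genes passed. At an unadjusted p under 0.05, 3 of the 6 passed (G6pc2, Mdh1 and Glud1), as did 24.4% of all tested genes. DESeq2, which called 1928 genes for this difference where edgeR called 821, called Glud1.

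Slc2a2 encodes GLUT2, the main glucose transporter of mouse beta cells (ENSMUSG00000027690, GRCm38 chromosome 3, 28697903 to 28731359, plus strand). It stood at 672, 571, 550.5 and 522 CPM in the 4 male S64F/+ libraries, against 977, 1093, 898 and 925 CPM in the 4 male WT libraries. The highest male S64F/+ library lay below the lowest male WT library. In females it stood at 806, 604, 618, 572 and 529 CPM in the S64F/+ libraries, against 1031, 948, 989, 952 and 971 CPM in the WT libraries. The ranges were apart here too, although the first female S64F/+ library stood well above the other 4. The log2 fold change of S64F/+ over WT was -0.75 ± 0.12 (SE) in males (edgeR adjusted p 0.000105) and -0.64 ± 0.10 in females (edgeR adjusted p 0.000204). The male effect minus the female effect was -0.11 ± 0.15 (edgeR adjusted p 0.713), and its sign turned with library-size scaling (0.13) and with scaling to pan-endocrine genes (0.02). Under these 2 scalings the median of all genes was itself shifted by 0.25 and 0.14. Slc2a2 stood at -0.13 and -0.12 from it, against -0.12 with TMM scaling.

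Of the 9 beta-cell markers, those called moved the same way as Slc2a2. All 9 were lower in male S64F/+ than in male WT islets and 7 of 9 were lower in female S64F/+ than in female WT islets, with median log2 fold changes of -0.84 and -0.48. In females Ins1 (-0.45, edgeR adjusted p 0.0882) and Ins2 (-0.01, edgeR adjusted p 0.971) were not called. The part of the fall of these markers in the result for Slc2a2, and for Pcx, G6pc2 and Gpd2, was not tested. The sum of 15 pan-endocrine markers was 24033 to 27152 CPM in male S64F/+ and 29794 to 34030 CPM in male WT libraries, and overlapped in females (26488 to 32062 CPM in S64F/+ and 27597 to 30907 CPM in WT). Of the 15, 4 were lower and 1 higher in male S64F/+ islets, and 4 were lower and 3 higher in female S64F/+ islets. Chga, a large part of the sum, averaged 11406 CPM in male S64F/+ against 15443 CPM in male WT islets. With libraries scaled to the 15 pan-endocrine markers, the log2 fold change of Slc2a2 in males was -0.58 (edgeR adjusted p 0.00165).

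G6pc2 encodes the islet form of the glucose-6-phosphatase catalytic subunit, which takes the phosphate off glucose-6-phosphate again (ENSMUSG00000005232, chromosome 2, 69211073 to 69227841, plus strand). In males it stood at 1834, 2225, 1902 and 2166 CPM in S64F/+ libraries, against 2462, 2016, 1693 and 2129.5 CPM in WT libraries. These ranges overlapped, and the S64F/+ values lay within the range of the WT values. In females it stood at 1313, 1162, 1265, 1488 and 1618 CPM in S64F/+ libraries, against 2447, 1542, 1647, 2171 and 1922 CPM in WT libraries. Only the highest female S64F/+ library reached into the female WT range. The log2 fold change was -0.51 ± 0.13 in females (edgeR adjusted p 0.0105) and -0.03 ± 0.15 in males (edgeR adjusted p 0.907). The male value had no stable sign, being 0.19 with library-size scaling, 0.13 with pan-endocrine scaling and -0.12 to 0.06 when each library was left out in turn. The male effect minus the female effect was 0.48 ± 0.20 (edgeR adjusted p 0.148) by TMM. With library-size scaling it was 0.72 (edgeR adjusted p 0.0333), a scaling under which the median of all genes was itself shifted by 0.25.

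Pcx, pyruvate carboxylase, turns pyruvate into oxaloacetate in the mitochondrion and opens the cycles by which beta cells export carbon (ENSMUSG00000024892, chromosome 19, 4510472 to 4621752, plus strand). Among the 6 genes it had the largest fold change in each sex. It stood at 91.8, 78.8, 81.3 and 81.5 CPM in male S64F/+ libraries, against 198, 204, 173 and 208 CPM in male WT libraries. Every male S64F/+ library was far below every male WT library. In female S64F/+ libraries it stood at 123, 100.3, 85.3, 115 and 106 CPM, against 234, 183, 197, 244 and 276 CPM in female WT libraries. The female ranges were apart as well, with a wider spread within each group than in males. The log2 fold change was -1.23 ± 0.12 in males (edgeR adjusted p 1.33e-06) and -1.10 ± 0.11 in females (edgeR adjusted p 1.39e-06), or 0.426 and 0.467 times the WT level. The difference between the sexes was -0.13 ± 0.16 on the log2 scale (edgeR adjusted p 0.652), with its sign turned by library-size scaling (0.09). Set against the median of all genes, it was -0.16 with library-size scaling and -0.15 with TMM scaling.

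The gene Lrfn4 lies within Pcx on the opposite strand and shares no exon base with it in the GENCODE annotation. The counts may rest on other exons, since the deposited length of Pcx was 13098 bases against 4753 in that annotation. The counts of Lrfn4 over all libraries came to 31% of those of Pcx, and whether the counting used strand is not stated. Lrfn4, a synaptic adhesion protein, fell too in each sex, with log2 fold changes of -0.81 in males (edgeR adjusted p 0.000135) and -0.72 in females (edgeR adjusted p 0.000187).

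Gpd2 encodes the mitochondrial glycerol-3-phosphate dehydrogenase, the inner-membrane enzyme of the glycerol phosphate shuttle (ENSMUSG00000026827, chromosome 2, 57237635 to 57370719, plus strand). It stood at 105, 85.9, 94.8 and 74.4 CPM in male S64F/+ libraries, against 133, 129, 124 and 128 CPM in male WT libraries. The male ranges were apart, and the WT libraries lay close together. In female S64F/+ libraries it stood at 138, 119.5, 82.3, 82.6 and 90.7 CPM, against 131, 118, 162, 115 and 135 CPM in female WT libraries. The first 2 female S64F/+ libraries lay within the female WT range and the other 3 below it. The log2 fold change was -0.51 ± 0.15 in males (edgeR adjusted p 0.0166) and -0.36 ± 0.14 in females (edgeR adjusted p 0.0639).

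The call for Gpd2 moved with the scaling in males and with single libraries in both sexes. In males it held in 17 of 18 fits without 1 library, and was lost without S64F/+ library 4 (-0.43, edgeR adjusted p 0.0587). It was also lost with library-size scaling (-0.29, edgeR adjusted p 0.286) and with pan-endocrine scaling (-0.35, edgeR adjusted p 0.141). Under TMM, library-size and pan-endocrine scaling the male fold change stood at -0.49, -0.48 and -0.49 from the median of all genes. In females Gpd2 passed the threshold without S64F/+ library 1 (-0.49, edgeR adjusted p 0.0055), without WT library 4 (-0.41, edgeR adjusted p 0.0463), by DESeq2 (-0.36, adjusted p 0.0477) and by limma-voom (-0.39, adjusted p 0.0449). The antisense transcript A930012O16Rik shares 487 of the 6549 GENCODE exon bases of Gpd2 (deposited length 20532 bases), and its counts came to 1.93% of those of Gpd2.

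Mdh1, the cytosolic malate dehydrogenase of the malate-aspartate shuttle, moved in the other direction (ENSMUSG00000020321, chromosome 11, 21556787 to 21572367, minus strand). In females it stood at 191, 206, 261, 239 and 224 CPM in S64F/+ libraries, against 155, 145, 171, 184 and 159 CPM in WT libraries. Every female S64F/+ library was above every female WT library. In males it stood at 200.1, 226, 257 and 247 CPM in S64F/+ libraries, against 249, 202, 212 and 226 CPM in WT libraries, and the ranges overlapped. The log2 fold change was 0.46 ± 0.09 in females (edgeR adjusted p 0.00187) and 0.06 ± 0.11 in males (edgeR adjusted p 0.701). The male value passed the threshold with library-size scaling (0.29, edgeR adjusted p 0.018), where it stood 0.09 above the median of all genes, as it did with TMM scaling. The male effect minus the female effect was -0.40 ± 0.14 (edgeR adjusted p 0.0986), and it passed the threshold without female S64F/+ library 1 (-0.45, edgeR adjusted p 0.0394).

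Mdh1 overlaps Wdpcp, a planar cell polarity effector read from the opposite strand, over 52 of its 2567 GENCODE exon bases (deposited length 3915 bases). The counts of Wdpcp came to 8.9% of those of Mdh1. Wdpcp was higher in female S64F/+ than in female WT islets (log2 fold change 0.41, edgeR adjusted p 0.00621), and had a log2 fold change of -0.09 in males (edgeR adjusted p 0.58).

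Glud1, the mitochondrial glutamate dehydrogenase, links glutamate to the citric acid cycle, and activating variants of its human counterpart cause excess insulin release (ENSMUSG00000021794, chromosome 14, 34310727 to 34345265, plus strand). In female S64F/+ libraries it stood at 171, 171, 174, 167 and 173 CPM, against 116, 135, 136, 134 and 133 CPM in female WT libraries. The female ranges were apart, and the spread within the S64F/+ group was small. In male S64F/+ libraries it stood at 144, 146, 162 and 151 CPM, against 122, 136, 155 and 161 CPM in male WT libraries, with overlap. The log2 fold change was 0.39 ± 0.07 in females (edgeR adjusted p 0.000844) and 0.07 ± 0.08 in males (edgeR adjusted p 0.563). In males it passed the threshold with library-size scaling (0.30, edgeR adjusted p 0.0213) and with pan-endocrine scaling (0.24, edgeR adjusted p 0.0467), and stood 0.10 above the median of all genes under each of library-size, TMM and pan-endocrine scaling. The male effect minus the female effect was -0.32 ± 0.11 (edgeR adjusted p 0.0878), and it passed the threshold without male WT library 1 (-0.39, edgeR adjusted p 0.0475) and by DESeq2 (-0.31, adjusted p 0.0371).

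Markers of other endocrine cells moved with Mdh1 and Glud1 in females. All 7 alpha-cell markers and 4 of 5 delta-cell markers were higher in female S64F/+ than in female WT islets, and the summed delta-cell level was 6050 to 8196 CPM against 2727 to 4204 CPM. In males 1 of 7 alpha-cell markers and 4 of 5 delta-cell markers were higher in S64F/+ islets. Their part in the rise of Mdh1 and Glud1 in females was not tested.

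**Figure D2:**
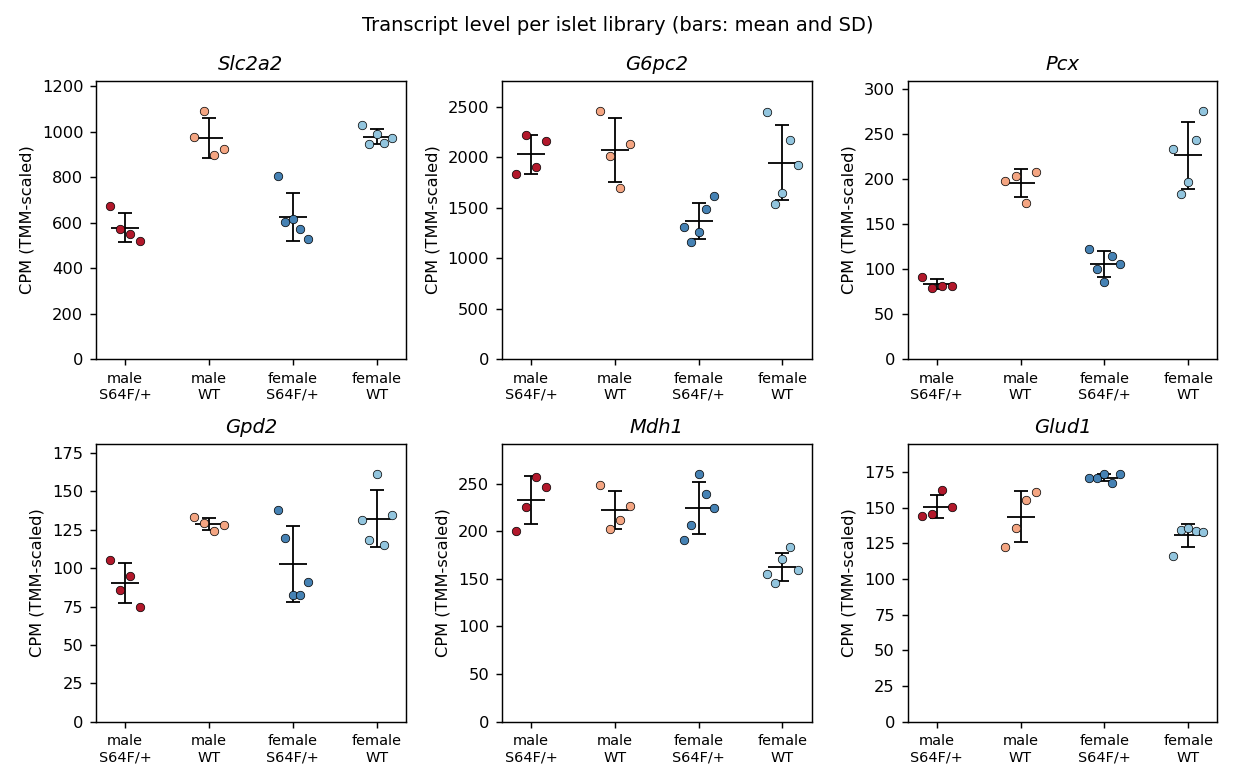
CPM of each gene, with 1 point per library, the group mean as a bar and the SD as whiskers. Slc2a2 and Pcx are lower in S64F/+ than in WT libraries of both sexes without overlap, Gpd2 is so in males, and Mdh1 and Glud1 are higher in female S64F/+ than in female WT libraries.

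**Figure D3:**
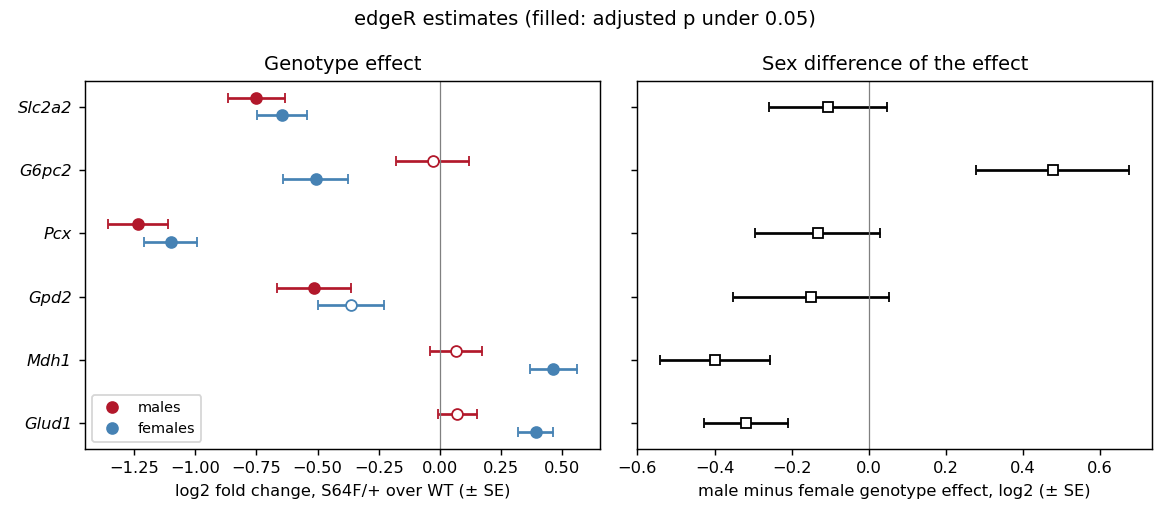
Left, log2 fold change of S64F/+ over WT by sex with its SE, filled where the edgeR adjusted p was under 0.05. Right, the male minus the female effect with its SE, for which none of the 6 genes passed the threshold.

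Male and female islets of the same genotype were also compared. Among WT islets 1 of the 6 genes differed, with 2.36% of all tested genes called. Mdh1 was higher in male WT than in female WT islets, at 222 ± 20.2 CPM (SD, n = 4) against 163 ± 14.7 CPM (SD, n = 5), a log2 difference of 0.45 ± 0.10 (edgeR adjusted p 0.0237). The call did not hold in 6 of 18 fits with a library omitted, the highest edgeR adjusted p being 0.0895 without male WT library 4. The other values were 0.0504 without male WT library 3, 0.0583 without female WT library 5, 0.0639 without female WT library 1, 0.0735 without female WT library 2 and 0.0873 without male WT library 1, each an edgeR adjusted p. The log2 difference of the other members between male and female WT islets lay between -0.21 (Pcx) and 0.14 (Glud1).

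Among S64F/+ islets G6pc2 and Pcx differed between the sexes, with 16.1% of all tested genes called. G6pc2 was at 2032 ± 193 CPM in male S64F/+ against 1369 ± 183 CPM in female S64F/+ islets, without overlap (log2 difference 0.57 ± 0.14, edgeR adjusted p 0.0123). Pcx was at 83.3 ± 5.74 CPM in male S64F/+ against 106 ± 14.4 CPM in female S64F/+ islets (log2 difference -0.35 ± 0.12, edgeR adjusted p 0.049). The call of Pcx did not hold in 13 of 18 fits with a library omitted, where the log2 difference lay between -0.41 and -0.29 and the edgeR adjusted p reached 0.114 without male S64F/+ library 2, nor with library-size scaling (-0.17, edgeR adjusted p 0.346). Mdh1 was at 232 ± 25.2 CPM in male S64F/+ and 224 ± 27.1 CPM in female S64F/+ islets, a log2 difference of 0.05 ± 0.10 (edgeR adjusted p 0.756).

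Slc2a2, Pcx, Gpd2 and Mdh1 were then each set against a partner that shares its substrate or its place in the cell, as a ratio of FPKM within a library, which does not depend on how libraries are scaled. Slc2a2 fell relative to Slc2a1 (GLUT1, the widespread glucose transporter). Slc2a1 itself did not pass the test, at 0.33 ± 0.16 in males (edgeR adjusted p 0.137) and 0.13 ± 0.14 in females (edgeR adjusted p 0.582). In males it passed the threshold with library-size scaling (0.56, edgeR adjusted p 0.0152) and with pan-endocrine scaling (0.50, edgeR adjusted p 0.0303). The ratio holds the changes of both genes. The log2 ratio was 4.75 ± 0.26 in male S64F/+ against 5.82 ± 0.26 in male WT islets, and 5.34 ± 0.39 in female S64F/+ against 6.12 ± 0.25 in female WT islets, each pair of ranges being apart. The differences were -1.08 in males (exact permutation p 0.0286, adjusted over 12 ratio tests 0.049) and -0.78 in females (exact permutation p 0.00794, adjusted 0.0476). These are the smallest p-values that 4 against 4 and 5 against 5 libraries allow. The female libraries were permuted freely here. Taken as 5 pairs by replicate number, the ratio was lower in S64F/+ in 5 of 5 pairs, with an exact sign-flip p of 0.0625, the smallest that 5 pairs can give, so that no female ratio can pass the threshold in that form.

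Pcx also fell relative to Pdha1, the alpha subunit of the pyruvate dehydrogenase that competes with it for pyruvate. The log2 ratio was -1.63 ± 0.16 in male S64F/+ against -0.47 ± 0.12 in male WT islets, and -1.12 ± 0.16 in female S64F/+ against -0.08 ± 0.23 in female WT islets, without overlap. The differences were -1.16 in males (exact permutation p 0.0286, adjusted 0.049) and -1.05 in females (exact permutation p 0.00794, adjusted 0.0476). Pdha1 itself did not pass the test in either sex, with log2 fold changes of -0.07 in males and -0.05 in females.

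For the shuttle enzymes the ratios moved less. Gpd2 over Gpd1, the cytosolic enzyme of the same shuttle, differed by -0.60 in males (exact permutation p 0.171, adjusted 0.206) and by -0.39 in females (exact permutation p 0.0476, adjusted 0.0635). Gpd1 itself ranged from 31.5 to 83.1 CPM in male S64F/+ libraries (highest in library 3). In male WT libraries it ranged from 33.5 to 61.5 CPM (highest in library 2). Without 1 library the male difference of this ratio lay between -0.83 and -0.32. Mdh1 over Mdh2, the mitochondrial malate dehydrogenase, was at a log2 ratio of 1.42 ± 0.15 in female S64F/+ against 1.16 ± 0.07 in female WT islets, a difference of 0.26 (exact permutation p 0.0159, adjusted 0.049). In males the Mdh1 ratio differed by 0.15 (exact permutation p 0.429, adjusted 0.468). The difference of these ratios between the sexes was not tested.

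**Figure D4:**
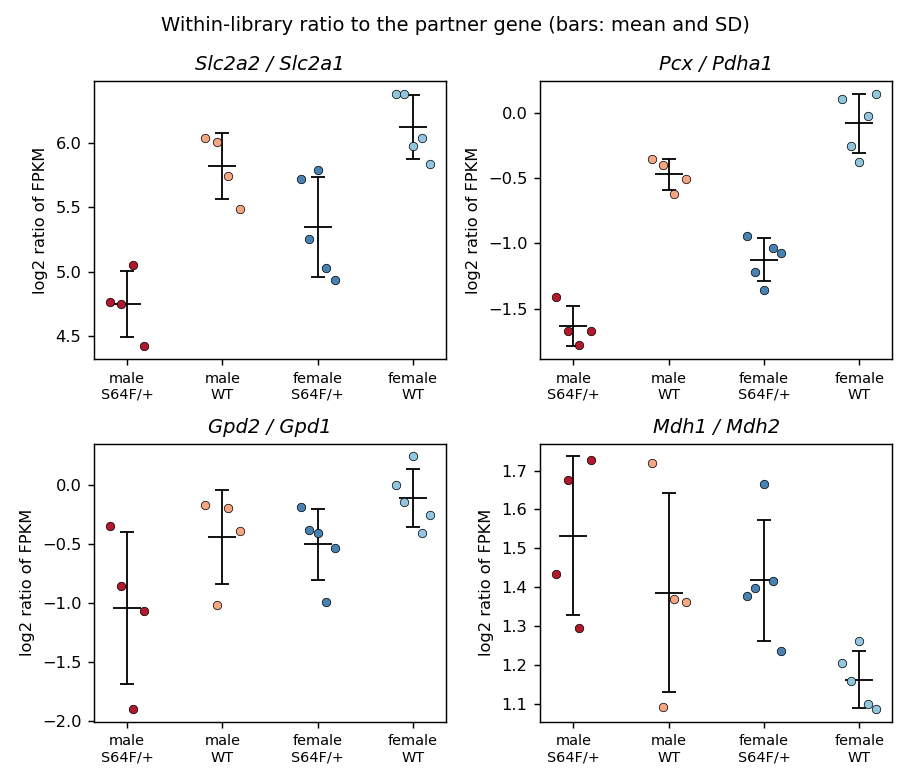
log2 ratio of the FPKM of Slc2a2, Pcx, Gpd2 and Mdh1 to that of a partner gene within a library, with group means and SD. The ratios of Slc2a2 to Slc2a1 and of Pcx to Pdha1 are lower in S64F/+ than in WT libraries of both sexes, with separate ranges.

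The surrounding pathways were read through 7 lists holding 74 other genes, of which 73 were tested. In males 11 (15.1%) were higher and 15 (20.5%) lower in S64F/+ islets, beside 15.4% and 12.3% of all tested genes. In females 7 (9.59%) were higher and 5 (6.85%) lower, beside 10.2% and 11% of all tested genes. The median log2 fold changes of the lists together were -0.02 in males and 0.06 in females. The male split depended on the scaling, since 17 were higher and 5 lower with library-size scaling and 16 higher and 6 lower with pan-endocrine scaling, which moved the median of all genes to 0.19 and 0.14. When each library was left out in turn, 8 to 17 were higher and 12 to 16 lower in males, and 5 to 9 higher and 5 to 7 lower in females. The lists were written with earlier results of these data known, and their counts stand as description.

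Among 12 other genes of glucose entry and phosphorylation, 5 were higher and 1 lower in male S64F/+ islets, and none passed the test in females, or 1 lower (Slc37a4) with the replicate block and with library-size scaling. In males 8 were higher with library-size scaling, 7 with pan-endocrine scaling and 3 to 8 with 1 library left out, with 1 lower each time. Hk1, the hexokinase that most tissues use and beta cells keep low, was at 31.7 ± 4.51 CPM in male S64F/+ against 13.6 ± 3.87 CPM in male WT islets (log2 fold change 1.22 ± 0.25, edgeR adjusted p 0.00173). In females it was at 24.0 ± 6.92 CPM in S64F/+ against 17.9 ± 5.05 CPM in WT islets (0.42 ± 0.22, edgeR adjusted p 0.198). Hk3, a hexokinase of myeloid cells, was at 1.02 ± 0.13 CPM in male S64F/+ against 0.373 ± 0.137 CPM in male WT islets (1.46 ± 0.31, edgeR adjusted p 0.00153). The other rises were in Gckr, Slc2a3 and Slc2a4, of which Slc2a3 was lost without male WT library 1 or 4 and Slc2a4 without male WT library 1, 3 or 4 or male S64F/+ library 1 or 3 (highest edgeR adjusted p 0.0589 and 0.0702). The fall was in Slc37a4, the carrier that brings glucose-6-phosphate to the enzyme encoded by G6pc2 (-0.54 ± 0.12, edgeR adjusted p 0.00309). In females Slc37a4 had -0.28 ± 0.11 (edgeR adjusted p 0.0739), or -0.28 with the replicate block (edgeR adjusted p 0.0226) and -0.30 with library-size scaling (edgeR adjusted p 0.0363).

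Markers of cells other than islet endocrine cells stood beside these male rises. All 8 stellate and fibroblast markers, 5 of 7 endothelial, 6 of 8 macrophage, 5 of 7 ductal and 3 of 6 Schwann-cell markers were higher in male S64F/+ than in male WT islets. Among the macrophage markers C1qa, a complement component and the most abundant of the list, was lower, at 37.7 ± 4.88 CPM in male S64F/+ against 68.7 ± 17.6 CPM in male WT islets (-0.86 ± 0.15, edgeR adjusted p 0.000383). In females 6 of 8 macrophage and 2 of 7 ductal markers were higher, and no marker of the other 3 lists was called. The summed stellate and fibroblast level was 1531 to 2331 CPM in male S64F/+ against 216 to 528 CPM in male WT libraries, and 254 to 1026 CPM in female S64F/+ against 274 to 817 CPM in female WT libraries. The summed macrophage level was 124 to 164 CPM in male S64F/+ against 90.8 to 130 CPM in male WT libraries, and 104 to 182 CPM in female S64F/+ against 82.1 to 118 CPM in female WT libraries. Their part in the rises of Hk1, Hk3 and the transporters was not tested. None of 8 acinar markers passed the test in either sex.

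Around pyruvate, 2 of 19 other genes were higher and 6 lower in male S64F/+ islets, and 3 were higher and 4 lower in female S64F/+ islets. Me1, the cytosolic malic enzyme that returns malate to pyruvate, was at 46.5 ± 4.34 CPM in male S64F/+ against 22.4 ± 2.15 CPM in male WT islets (log2 fold change 1.05 ± 0.10, edgeR adjusted p 6.17e-07). It was at 38.5 ± 4.24 CPM in female S64F/+ against 20.1 ± 1.33 CPM in female WT islets (0.93 ± 0.09, edgeR adjusted p 7.04e-07), so that Me1 and Pcx, enzymes of the same export cycle, moved in opposite directions. Acly, which cleaves exported citrate in the cytosol, was at 1114 ± 32.3 CPM in male S64F/+ against 1769 ± 88.5 CPM in male WT islets (-0.67 ± 0.11, edgeR adjusted p 0.000213). In females it was at 1225 ± 180.5 CPM in S64F/+ against 1812 ± 184 CPM in WT islets (-0.57 ± 0.10, edgeR adjusted p 0.000478).

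Other regulators of pyruvate entry were called in both sexes. Pdk4, a kinase that shuts pyruvate dehydrogenase, was higher in S64F/+ islets, with log2 fold changes of 0.87 ± 0.21 in males (edgeR adjusted p 0.00478) and 0.90 ± 0.18 in females (edgeR adjusted p 0.0022). Pdk1, a kinase of the same family, was lower, at -0.36 ± 0.10 in males (edgeR adjusted p 0.0151, or 0.508 with library-size and 0.244 with pan-endocrine scaling) and -0.38 ± 0.09 in females (edgeR adjusted p 0.00736). Pdp2, a phosphatase that reopens the enzyme, and Slc25a1, the mitochondrial citrate carrier, were also lower in both sexes, although the male call of Pdp2 was lost with library-size scaling (-0.46, edgeR adjusted p 0.0568). With library-size scaling 3 genes of this list were higher and 2 lower in males, and with pan-endocrine scaling 3 were higher and 3 lower.

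None of the 16 citric acid cycle genes was called in females (1 was lower, Idh2, with the replicate block and with library-size scaling, and 1 higher, Idh3b, with pan-endocrine scaling), and 6 were lower in male S64F/+ islets, a count that came to 1 with library-size scaling and to 1 with pan-endocrine scaling. Idh2, the mitochondrial NADP-dependent isocitrate dehydrogenase, was at 102 ± 8.02 CPM in male S64F/+ against 162 ± 12.1 CPM in male WT islets (-0.67 ± 0.12, edgeR adjusted p 0.000347), and was lower under both of these scalings too (-0.44 and -0.50). In females the fold change of Idh2 was -0.26 ± 0.10 (edgeR adjusted p 0.079), and it passed the threshold with the replicate block (-0.25, edgeR adjusted p 0.0391), with library-size scaling (edgeR adjusted p 0.0352) and without female WT library 2 or 3. Fh1, fumarate hydratase, was at 80.7 ± 8.42 CPM in male S64F/+ against 116 ± 19.6 CPM in male WT islets (-0.52 ± 0.14, edgeR adjusted p 0.00881), with adjusted p of 0.111 with library-size and 0.076 with pan-endocrine scaling.

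Among the shuttles, none of the 6 other malate-aspartate genes passed the test in either sex. Got1 and Got2, the cytosolic and mitochondrial aspartate aminotransferases, had log2 fold changes of 0.19 and -0.13 in males and of 0.20 and 0.01 in females. The carriers Slc25a11, Slc25a12 and Slc25a13 had -0.21, -0.02 and -0.25 in males and 0.11, 0.01 and -0.41 in females. Got1 passed the threshold in males with library-size scaling (0.41, edgeR adjusted p 0.00586) and with pan-endocrine scaling (0.36, edgeR adjusted p 0.00617), and in females with pan-endocrine scaling (0.24, edgeR adjusted p 0.0445). Of 4 glycerol phosphate genes, Gk, glycerol kinase, was higher in S64F/+ islets of both sexes, at 0.71 ± 0.22 in males (edgeR adjusted p 0.0238) and 0.76 ± 0.20 in females (edgeR adjusted p 0.0109). The male call of Gk was lost without WT library 1 or 4 and without S64F/+ library 3, the highest edgeR adjusted p being 0.144 without S64F/+ library 3, where the log2 fold change was 0.37. It was also lost by limma-voom (adjusted p 0.0676) and in an edgeR fit of the male groups alone (adjusted p 0.0674).

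Around glutamate, Glul, glutamine synthetase, fell further than any other called gene of its list. It was at 180.5 ± 30.4 CPM in male S64F/+ against 419 ± 51.5 CPM in male WT islets (-1.22 ± 0.15, edgeR adjusted p 8.79e-06), and at 206 ± 15.1 CPM in female S64F/+ against 385 ± 73.0 CPM in female WT islets (-0.90 ± 0.13, edgeR adjusted p 6.98e-05). Gpt2, the mitochondrial alanine aminotransferase, was higher in male S64F/+ islets (0.73 ± 0.10, edgeR adjusted p 4.28e-05). In females the call of Gpt2 (0.26 ± 0.09, edgeR adjusted p 0.0485) did not hold in 16 of 18 fits with a library omitted, and the edgeR adjusted p was 0.057 with the replicate block.

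Of 6 lactate and monocarboxylate genes, the transporters Slc16a1 and Slc16a7 were higher in male S64F/+ islets and Slc16a7 in female S64F/+ islets. Slc16a1 (MCT1), which adult beta cells keep low, was at 4.33 ± 1.61 CPM in male S64F/+ against 1.62 ± 0.44 CPM in male WT islets (1.40 ± 0.32, edgeR adjusted p 0.00266). In females it was at 2.14 ± 0.75 CPM in S64F/+ against 1.45 ± 0.34 CPM in WT islets (0.56 ± 0.28, edgeR adjusted p 0.171). Ldha, lactate dehydrogenase A, varied widely, between 20.6 and 75.1 CPM in male S64F/+ and between 5.14 and 49.0 CPM in male WT libraries (0.90 ± 0.61, edgeR adjusted p 0.304). Without 1 library this fold change lay between 0.30 and 1.91, and it passed the threshold without male WT library 2 (edgeR adjusted p 0.018).

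**Figure D5:**
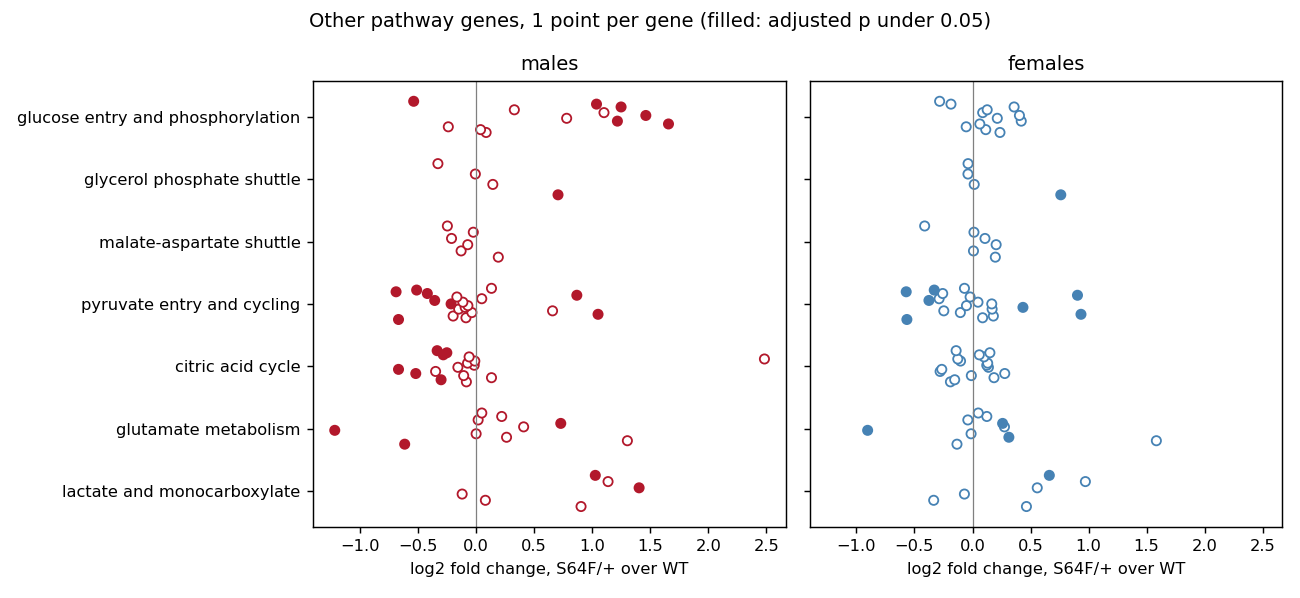
log2 fold change of S64F/+ over WT of the other genes of 7 lists, with males on the left and females on the right, 1 point per gene, filled where the edgeR adjusted p was under 0.05. Filled points lie on both sides of 0 in the pyruvate list, and only below 0 in the citric acid cycle list, which has filled points in males only.

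Genes whose pattern over the 18 libraries was most like that of each member were found among 13000 genes as those with the lowest root mean square difference of log2 CPM, each gene centred on its own mean. For Slc2a2 these were Sgpl1, Mboat2 and Tshz1, each at a difference of 0.11, against a spread of 0.38 of Slc2a2 itself. For Pcx they were Capn9 (0.16), Enpp2 (0.17) and Rab37 (0.18), against its own spread of 0.62. For G6pc2 they were Sec16b (0.16), Lrrfip2 (0.17) and Edem1 (0.17), against 0.31.

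The nearest genes of the shuttle enzymes followed. Epb41l3 (0.14) and Slc35b4 (0.15) were among the 3 nearest to Gpd2, against a spread of 0.31. Mdh1 was closest to Cycs, the cytochrome c of the respiratory chain, at a difference of 0.08 against its own spread of 0.25, then to Ier3ip1 (0.11) and Tfg (0.12). Cycs had a log2 fold change of -0.0028 in males and 0.45 in females. For Glud1 they were Rtn3 (0.09), Rragb (0.09) and Mesd (0.10), against a spread of 0.18. Points over these libraries share depth, scaling and cell composition, so the likeness is a description.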

How the data were processed

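The submitters' processing notes name STAR, featureCounts and the GRCm38 build, without versions, while the sources used here give neither annotation nor strand setting. The authors deposited raw counts per gene and FPKM values for each library, from paired-end reads of islet RNA with an integrity number above 8, per the labels' protocols. In the deposited FPKM a gene had 1 length in all libraries. Genes were filtered with filterByExpr (minimum count 10, minimum total 15), leaving 18364, and tested in 1 model of the 4 groups with edgeR 4.0.16 (TMM, robust quasi-likelihood, common biological variation 24.4%), with Benjamini-Hochberg adjustment over all of them and a threshold of 0.05. DESeq2 1.42.0, limma 3.58.1 (voom), other scalings and filters and leaving out each library were alternatives. The test was checked on simulated counts. Ratios used FPKM and exact 2-sided permutation tests over libraries. The members and lists were chosen with earlier results of these data known.

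The genes named are the 6 members, partner genes, 8 further genes of the pathways, the 2 called genes of smallest p in each list and contrast, and the 3 nearest patterns. Gckr, Slc2a3, Slc2a4, Slc37a4, Pdk1, Pdk4, Pdp2, Slc25a1, Pdhb, Suclg1, Idh3b, C1qa, Chga and the overlapping genes were named after their values were seen. A few genes chosen by these rules are not reported here. Replicate numbers recur in both genotypes of a sex. Deviations of same-numbered libraries correlated at 0.11 to 0.418 in the 5 female pairs and at -0.249 to 0.189 in the 4 male pairs. The same-numbered WT library correlated best only for female S64F/+ libraries 2 and 4 and for male S64F/+ library 4. No label marks the numbers as pairs, and the main tests took the libraries of both sexes as unpaired. The alternative with the number as a block, in both sexes, is called the replicate block.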

Additional observations from a re-analysis of the deposited data

Results flagged for a closer look

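Glud1 stood at 116 CPM in female WT library 1, below the other 4 female WT libraries by more than Dixon's test allows for a group of 5 (critical value 0.71). It was the only such library among 48 combinations of gene and group examined, of which chance gives about 1 in 20.

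The genotype effect differed between the sexes for 3 other genes of the pathways, by the interaction term of edgeR's quasi-likelihood model. They are 4.11% of the 73 tested genes of the lists, near the 4.47% called among all tested genes, so their number says nothing particular about the lists. Fh1, fumarate hydratase, had a male minus female log2 effect of -0.80 ± 0.19 (edgeR adjusted p 0.026), lost without male WT library 4 (edgeR adjusted p 0.071), without male S64F/+ library 1 or 3, and with library-size (0.0678) or pan-endocrine (0.0506) scaling. In females Fh1 was at 75.1 ± 7.77 CPM in S64F/+ against 62.1 ± 11.7 CPM in WT islets (0.28 ± 0.12, edgeR adjusted p 0.119). Male over female, Fh1 had a log2 difference of 0.90 ± 0.13 in WT islets (edgeR adjusted p 0.00229). In S64F/+ islets this was 0.10 ± 0.13 (edgeR adjusted p 0.615). Pdhb, the beta subunit of pyruvate dehydrogenase E1, had -0.38 ± 0.09 (edgeR adjusted p 0.0337, or 0.0551 with the replicate block), a call kept in 9 of the 18 fits without 1 library (highest edgeR adjusted p 0.0852, without male WT library 4). Suclg1, a subunit of succinyl-CoA ligase, had -0.40 ± 0.11 (edgeR adjusted p 0.0418), a call kept in 5 of those 18 fits (highest edgeR adjusted p 0.0985, without male WT library 4). With pan-endocrine scaling the values of Pdhb and Suclg1 were -0.26 and -0.28 (edgeR adjusted p 0.113 and 0.114).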

How the results depend on the processing

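Slc2a2 and Pcx in both sexes, and G6pc2, Mdh1 and Glud1 in females, kept their direction and their call under each alternative run. Library-size scaling gave log2 fold changes in males of 0.19 for G6pc2, -0.29 for Gpd2, 0.29 for Mdh1 and 0.30 for Glud1, and male minus female effects of 0.13 for Slc2a2, 0.72 for G6pc2, 0.0949 for Pcx and 0.0815 for Gpd2. Pan-endocrine scaling gave 0.13 for G6pc2, -0.35 for Gpd2 and 0.24 for Glud1 in males, and 0.018 for the sex difference of Slc2a2. DESeq2 gave -0.36 and limma-voom -0.39 for Gpd2 in females, and DESeq2 -0.31 for the sex difference of Glud1. Male over female, Slc2a2 was 0.0014 in WT with DESeq2's size factors and test and 0.0079 with only the compared groups, and 0.0646 in S64F/+ with library-size scaling, where Glud1 was 0.0002. Set against the median of all genes, the male effect of Gpd2 was -0.49, -0.48 and -0.49 with TMM, library-size and pan-endocrine scaling. In the same order, the sex difference of Slc2a2 from that median was -0.12, -0.13 and -0.12. For Pcx it was -0.15, -0.16 and -0.14. The cause of the shift in that median and of the other changes was not tested.

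Leaving out 1 library moved the effects in males between -0.12 and 0.061 for G6pc2 and between -0.60 and -0.43 for Gpd2, and in females between -0.49 and -0.28 for Gpd2. The sex difference of the effect ranged between -0.18 and 0.0027 for Slc2a2, -0.45 and -0.33 for Mdh1, and -0.39 and -0.26 for Glud1. Male over female ranged in WT between -0.069 and 0.028 for Slc2a2, -0.0001 and 0.19 for G6pc2, -0.0846 and 0.0431 for Gpd2, and 0.39 and 0.50 for Mdh1, and in S64F/+ between -0.0014 and 0.12 for Mdh1 and -0.41 and -0.29 for Pcx. All 12 ratios kept their direction and their side of the threshold with counts in place of FPKM. That is no separate check, because a gene had 1 length in all libraries, which cancels from the difference between groups. All 12 ratios also kept their direction without 1 library. Whether their calls held without 1 library could not be judged in males. With fewer male libraries the exact permutation test cannot give a p under 0.05. With the female libraries as pairs (replicate block, chosen after seeing the data), the female differences of Slc2a2 (-0.78), Pcx (-1.05) and Mdh1 (0.26) had an adjusted exact p of 0.075, because 5 pairs cannot give less than 0.0625.

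Counts of called genes were 5071 in males (3956 to 5545 without 1 library), 3884 in females (2587 in a fit of only these groups; 2935 to 4988), 821 for the sex difference of the effect (1928 by DESeq2, 481 without the filter; 253 to 2152), 434 between the sexes in WT (112 with library-size scaling, 1067 by DESeq2, 252 without the filter, 226 with only these groups; 71 to 643) and 2962 between the sexes in S64F/+ (1969 without the filter; 1651 to 4298). The split for the sex difference was 527 higher and 294 lower, against 1031 and 30 with library-size and 813 and 45 with pan-endocrine scaling. The replicate block called 5101 genes in males, 3865 in females and 920 for the sex difference, and changed no call of the 6 genes. Hk3, Gckr and Slc2a4 were counted at low depth, with group means of 0.25 to 1.36 CPM.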
